A study of Mus musculus with 12 samples.

Results

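Kat6b, Prkca, Cdc14b and Erp27 are 4 mouse genes that each hold a CpG named in all 3 deposited lists of CpGs that differed between epididymal and testicular spermatozoa. The genes were selected on these measured methylation values, and the CpG that put each gene in the group is called its lead CpG. The 4 lead CpGs are among 16 CpGs present in the caput, corpus and cauda lists at once. Within 1 kb of the lead CpGs, 6 CpGs occur in the lists or in the deposited table of read counts, out of 19280 CpGs in these files together. The count table itself holds 14149 CpGs and includes 5 of the 6, with no row for the CpG of Erp27.

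Methylation was measured by reduced representation bisulfite sequencing (RRBS), which reads short restriction fragments rich in CpG. Bisulfite converts unmethylated cytosines, so the methylation level of a CpG is the percentage of its reads in which the cytosine was kept. Spermatozoa of 4 origins, the testis and the 3 epididymal segments caput, corpus and cauda, were measured in 3 samples each, 12 in all. Each sample was a pool of 4 mice. All mice were untreated B6D2F1 animals, 10 to 12 weeks old, that carried the transgenes CAG/su9-DsRed2 and Acr3-EGFP of the line RBGS002Osb. They have a red fluorescent protein sent to mitochondria under the ubiquitous CAG promoter and a green fluorescent protein in the acrosome, and spermatozoa were sorted on both signals. Cauda spermatozoa were collected by perfusion of the duct, whereas cells of the other origins were freed from minced tissue, and the testicular samples may hold late spermatids. Between cauda and the other origins, origin and way of collection cannot be told apart, nor can origin and cell stage between testis and the epididymal segments. The labels do not say whether samples that share a replicate number came from the same pool of mice.

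DNA methylation in the male germline is laid down in germ cells before birth and is carried through meiosis into the sperm. Spermatozoa leave the testis with most histones replaced by protamines and with transcription shut down, and they mature while passing through the caput, then the corpus, and are stored in the cauda. A CpG whose level in the cauda differs from that in the testis was thus measured in sorted cells that no longer divide. By the paper's counts, sorting was not complete in testis, caput and corpus. From DNase treatment, the paper also proposes that extracellular DNA on some caput spermatozoa contributes to the differences in caput. The presence of other DNA at the 4 genes was not tested. The question asked of the 4 genes was whether the difference from testicular spermatozoa is seen in every replicate or rests on spread between the testicular samples.

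The reads summed over the 14149 CpGs ranged from 429606 in corpus replicate 1 to 1007992 in testis replicate 2. The median coverage of a CpG was 20 reads in corpus replicate 1 and 52 reads in testis replicate 2. Caput replicate 1 stood apart from the other libraries. Its Pearson correlation across CpGs was 0.872 with caput replicate 2 and 0.857 with caput replicate 3, against 0.944 between these. CpGs are not independent replicates, and these values are a description. Corpus replicate 1 gave 0.938 and 0.931 with the other corpus samples, against 0.955 between them. Among the testicular samples the correlations were 0.977 to 0.985, and among the cauda samples 0.982 to 0.983. Replicate 1 was not used for the list of caput CpGs nor for that of corpus CpGs, whereas the cauda list used every replicate. Values are therefore given with and without replicate 1 of caput and corpus. Intervals are Wilson 95% intervals. Where no read was methylated, or none unmethylated, 3 reads of the coverage are given as the upper limit of that share. Both cover counting error only, since PCR copies of a read are not independent molecules.

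All 4 lead CpGs lie inside introns of GRCm38 and far from the start of their gene. Kat6b encodes a histone acetyltransferase of the MYST family. Its lead CpG is at chr14:21602323 on the + strand, in intron 2 of a transcript with 17 exons, 120889 bp from the start of the gene. A second CpG, chr14:21602331, lies 8 bp further on. Prkca encodes protein kinase C alpha, a serine/threonine kinase activated by calcium and diacylglycerol. Its lead CpG, chr11:107970558, was read on the - strand and lies in intron 13 of a transcript with 17 exons, 373370 bp from the start. Another CpG, chr11:107970560, is 2 bp away. Cdc14b encodes a dual-specificity phosphatase that acts in cell division. Its single CpG, chr13:64197760, lies in intron 13 of a coding transcript with 15 exons, 77530 bp from the start, and also within a noncoding transcript that retains the intron. Erp27 encodes a protein of the endoplasmic reticulum that belongs to the protein disulfide isomerase family and lacks the catalytic cysteines. Its CpG, chr6:136907597, lies on the - strand in intron 6 of a transcript with 7 exons, 90 bp from the last exon and 14583 bp from the start. Lying inside a gene was a condition of their choice, and 53.2% of the 14149 CpGs do so. Of all CpGs, 28.3% lie within 2 kb of a transcription start site.

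The stretches of 102 bases around the lead CpGs are shown because they hold every CpG within 1 kb that was measured or listed. They were read from GRCm38 on the strand of the measured cytosine, in 5′ to 3′ direction. Capitals mark the measured or listed CpGs.
Kat6b chr14:21602273-21602374 (+): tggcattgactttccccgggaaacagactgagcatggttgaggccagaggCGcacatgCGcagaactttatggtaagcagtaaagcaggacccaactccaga
Prkca chr11:107970507-107970608 (-): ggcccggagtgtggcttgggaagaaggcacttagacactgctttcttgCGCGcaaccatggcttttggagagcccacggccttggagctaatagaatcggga
Cdc14b chr13:64197710-64197811 (+): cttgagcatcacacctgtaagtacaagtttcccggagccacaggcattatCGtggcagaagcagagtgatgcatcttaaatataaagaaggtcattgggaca
Erp27 chr6:136907546-136907647 (-): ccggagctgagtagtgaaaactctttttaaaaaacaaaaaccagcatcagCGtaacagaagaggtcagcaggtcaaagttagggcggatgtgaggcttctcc
The Prkca stretch holds its measured CpGs side by side as CGCG, and the Kat6b stretch has 6 bases between its pair. The Cdc14b and Erp27 stretches hold 1 measured or listed CpG each. The fragments between neighbouring CCGG sites, at which the restriction enzyme of RRBS cuts, were 160 bp for Kat6b, 102 bp for Prkca, 211 bp for Cdc14b and 165 bp for Erp27, against a median of 151 bp over the 14149 CpGs. None of these CpGs lies in sequence masked as repeat, as do 16.3% of the CpGs in the table. Within 100 bp there were 7 CpGs for the lead CpG of Kat6b, 7 for Prkca, 4 for Cdc14b and 7 for Erp27, against a median of 7.

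At the lead CpG of Kat6b, testicular spermatozoa had methylation levels of 44, 78.1 and 72.1% in replicates 1, 2 and 3, on 25, 64 and 43 reads. In caput spermatozoa the levels were 20.8, 19 and 6.25% on 24, 21 and 32 reads. Every caput sample was below every testicular sample. Corpus spermatozoa had 42.1, 37.7 and 51.2% on 19, 53 and 41 reads, and cauda spermatozoa had 22.2, 60.6 and 36.4% on 45, 33 and 55 reads. Corpus and cauda both overlapped testis, because corpus replicate 3 and cauda replicate 2 lay above testis replicate 1. The interval of testis replicate 1 ran from 26.7 to 62.9% and held the levels of all 3 corpus samples and of cauda replicates 2 and 3. The mean was 64.7% ± 18.2 (SD, n = 3) in testis and 39.7% ± 19.4 (SD, n = 3) in cauda. Caput had a mean of 15.4% ± 7.95 (SD, n = 3), and corpus one of 43.7% ± 6.88 (SD, n = 3). In order of level the caput came lowest, followed by cauda, corpus and testis, and the neighbours cauda and corpus differed by less than the SD of the cauda samples. The difference from testis was -49.4 percentage points in caput, -21.1 in corpus and -25 in cauda. Without replicate 1 it was -52.1 points in caput and -20.3 in corpus. With each sample left out in turn the cauda difference ran from -35.4 points without testis replicate 1 to -16.3 without cauda replicate 1, and it was -18.3 without testis replicate 2.

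The second Kat6b CpG gave a similar order with less spread in testis. Its levels in testicular spermatozoa were 60, 75 and 76.2% on 25, 64 and 42 reads. In caput spermatozoa they were 0, 42.9 and 6.45% on 24, 21 and 31 reads. A count of 0 among 24 reads allows a level of up to 12.5% by the limit of 3 reads, or 13.8% by the Wilson interval. Corpus spermatozoa had 42.1, 41.5 and 57.1% and cauda spermatozoa had 26.2, 58.8 and 21.4%. All 9 epididymal samples lay below all 3 testicular samples at this CpG, with a gap of 1.18 points between cauda replicate 2 and testis replicate 1 and of 2.86 points between the nearest corpus and testicular samples. The reads at both Kat6b CpGs differed by at most 3 in each of the 12 samples, so the pair was read largely from the same fragments and does not give separate evidence. Their levels had a Pearson correlation of 0.88 over the 12 samples. The caput samples did not move together here: replicate 2 was at 42.9% at the second CpG and at 19% at the lead CpG, whereas replicate 1 was at 0 and 20.8%.

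At the lead CpG of Prkca, testicular spermatozoa had levels of 86.1, 23.3 and 60% on 36, 30 and 35 reads. Replicate 1 had an interval of 71.3 to 93.9% and replicate 2 one of 11.8 to 40.9%, so these testicular samples differed by more than counting error. In caput spermatozoa the levels were 71.4, 93.8 and 100% on 14, 32 and 12 reads. Corpus spermatozoa had 100, 95.5 and 95.8% on 11, 22 and 24 reads. All 3 cauda samples were at 100%, on 18, 22 and 16 reads, and no unmethylated read among these counts allows an unmethylated share of up to 16.7, 13.6 and 18.8% by the limit of 3 reads. The Wilson intervals began at 82.4, 85.1 and 80.6%. Every corpus and cauda sample lay above every testicular sample, whereas caput replicate 1 lay below testis replicate 1. The epididymal samples were thus all in the upper part of the scale, and the testicular samples were scattered over most of it. The mean was 56.5% ± 31.5 (SD, n = 3) in testis and 100% ± 0 (SD, n = 3) in cauda. Caput had a mean of 88.4% ± 15 (SD, n = 3), and corpus one of 97.1% ± 2.52 (SD, n = 3). Caput, corpus and cauda followed each other in rising order, each overlapping the next. The difference between cauda and testis was 43.5 points. Set against single testicular samples, the cauda mean was 13.9 points above replicate 1, 76.7 points above replicate 2 and 40 points above replicate 3. Its sign was the same against each testicular replicate, and its size depended on which testicular samples were used. Without replicate 2 the difference was 26.9 points, and without replicate 1 it was 58.3 points. In caput the difference from testis was 31.9 points, or 40.4 points without caput replicate 1. In corpus it was 40.6 points, or 39.2 points without corpus replicate 1. Without testis replicate 2 it was 15.3 points in caput and 24 points in corpus, and without testis replicate 1 it was 46.7 points in caput and 55.4 points in corpus.

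The CpG 2 bp away from the Prkca lead CpG did not share this pattern. Testicular spermatozoa had 97.3, 90 and 100% there, on 37, 30 and 35 reads. Caput spermatozoa had 100, 100 and 91.7%, corpus spermatozoa had 63.6, 100 and 100%, and all cauda samples were at 100%. Corpus replicate 1, with 7 methylated of 11 reads, was the only sample under 90%. Read numbers at the pair of CpGs differed by at most 1 in each sample, so in testis replicate 2 nearly the same 30 reads were 23.3% methylated at one cytosine and 90% at the next. Over the 12 samples the correlation between these neighbours was -0.01. This CpG lies within 1 kb of the lead CpG and is in none of the 3 lists.

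At the Cdc14b CpG, which had the highest coverage of the group, testicular spermatozoa had levels of 38.9, 94.5 and 94.1% on 90, 181 and 119 reads. In caput spermatozoa the levels were 99.1, 59.8 and 42.9% on 115, 97 and 119 reads. Corpus spermatozoa had 90.6, 53.7 and 54.8% on 53, 82 and 73 reads, and cauda spermatozoa had 100, 48.1 and 28.4% on 56, 81 and 116 reads. Replicate 1 was the low sample in testis and the high sample in each epididymal segment. Replicates 2 and 3 were high in testis and lower in every segment. All groups overlapped, and the shift from testis was therefore not seen in each replicate. Bisulfite reads do not separate an unmethylated cytosine from a C-to-T sequence difference between the parental strains of these hybrid mice. The genotype of the pools at this position was not tested, so the Cdc14b percentages are methylation levels only if every allele carries the cytosine. The same limit holds for the Kat6b and Prkca CpGs, whose genotype was not tested either. The cauda interval of replicate 1 began at 93.6%, far above the intervals of 37.6 to 58.9% and 21 to 37.2% for replicates 2 and 3. Compared number by number, cauda minus testis was 61.1 points in replicate 1, and -46.3 and -65.7 points in replicates 2 and 3. The numbers are not known to pair the samples, so these cannot be read as differences within a pool. The mean was 75.8% ± 32 (SD, n = 3) in testis and 58.9% ± 37 (SD, n = 3) in cauda. Caput had a mean of 67.3% ± 28.9 (SD, n = 3), and corpus one of 66.3% ± 21 (SD, n = 3). No neighbours in this order differed by more than the spread within either group. The difference from testis was -17 points in cauda, -8.57 in caput and -9.49 in corpus, each smaller than the SDs. Single samples moved these values widely. In cauda the difference was -1.75 points without cauda replicate 3 and -37.5 without cauda replicate 1, and -7.64 without testis replicate 2, -7.82 without testis replicate 3 and -35.4 without testis replicate 1. In corpus it was -0.164 points without testis replicate 2, -0.342 without testis replicate 3 and -28 without testis replicate 1. In caput it changed sign, with 0.757 points without testis replicate 2 and 3.63 without caput replicate 3, against -27 without testis replicate 1. From medians the difference was -46 points in cauda, -34.3 in caput and -39.3 in corpus. From the pooled reads it was -30.9 points in cauda, since replicates 2 and 3 carried more reads. Without cauda replicate 3 the Cdc14b CpG was not called against testis, nor was it without testis replicate 2. Without replicate 1 the difference was -24.5 points in caput and -21.6 in corpus.

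**Figure D1:**
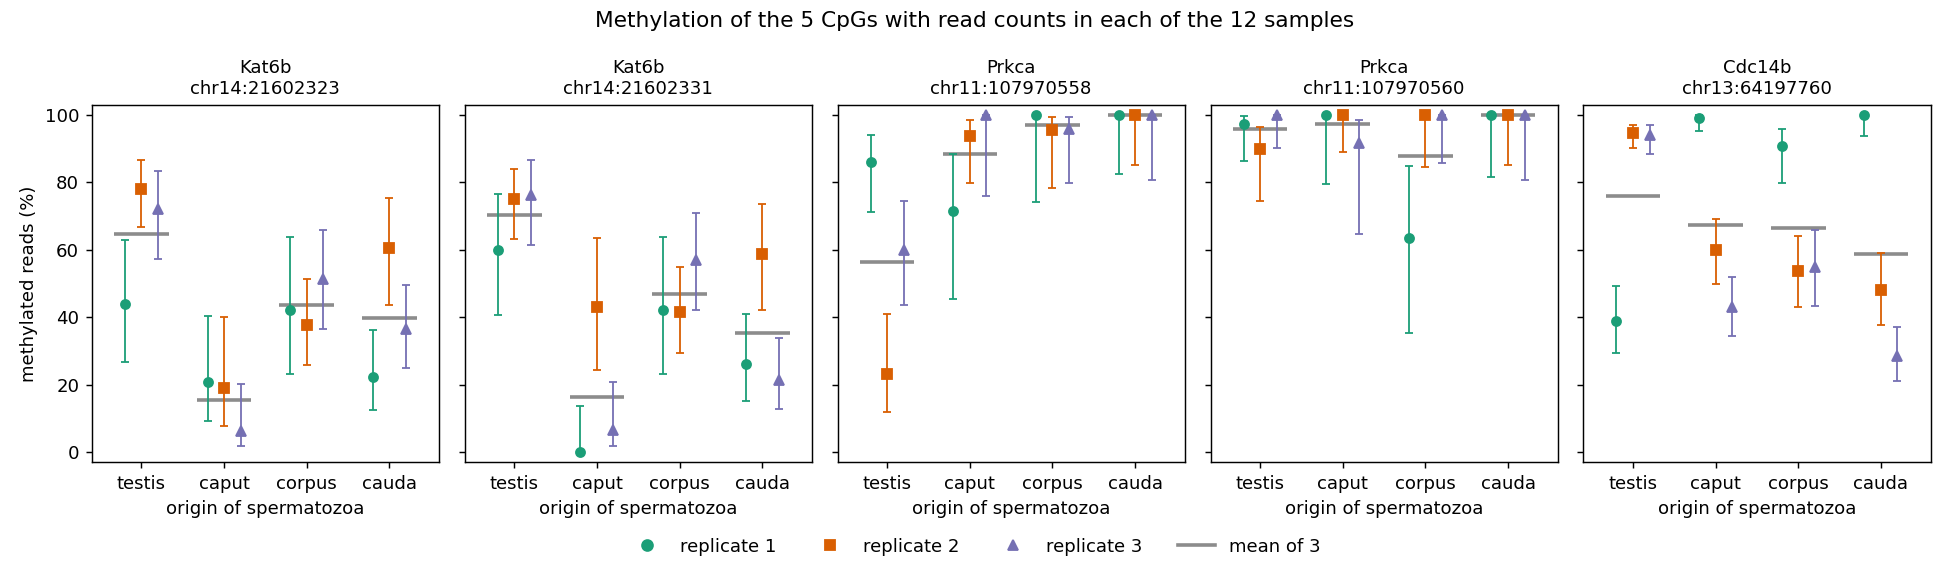
Methylated reads in percent (y axis) at the 5 CpGs with read counts, by origin of the spermatozoa (x axis), with 1 point per sample, Wilson 95% intervals as bars, the replicate number as colour and symbol, and the mean of 3 samples as a grey line. At Cdc14b, replicate 1 is at 38.9% in testis and at 90.6 to 100% in the epididymal segments, opposite to replicates 2 and 3, and at the lead CpG of Prkca the testicular samples spread from 23.3 to 86.1%.

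The Erp27 CpG was in the caput, corpus and cauda lists and has no row of read counts. Its level in each sample was not analysed here, and whether its shift is seen in every replicate cannot be said from these values. No other CpG of the count table lies in Erp27 or within 2 kb before its start.

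Against testis, 4 of the 5 CpGs passed the threshold in cauda (adjusted p under 0.01 and a pooled difference above 25 points), as did 33 of 14149 CpGs, or 0.233%. The members were chosen on this contrast, so nothing is read from their count. The 4 were both Kat6b CpGs and the Cdc14b CpG, with lower levels in cauda, and the lead CpG of Prkca, with a higher one. In caput 3 of the 5 CpGs passed, against 2377 of 14149 or 16.8%, and in corpus 3 of 5 passed, against 560 or 3.96%. Those 3 were both Kat6b CpGs and the lead CpG of Prkca in each segment. This test takes reads as independent and does not count spread between samples. With an overdispersion term, or with limma on the sample percentages, 0 of the 5 CpGs and 0 of 14149 passed in cauda, where 435 and 574 CpGs had an unadjusted p under 0.05. In caput and corpus 0 of the 5 passed with either. Over all 14149 CpGs the overdispersion term called 0 in caput and 0 in corpus. The calls by limma with a pseudo-percent of 1 were 12 in caput and 3 in corpus. A CpG that did not pass is not thereby shown to be unchanged. Single libraries decided several of these calls. In cauda, leaving out testis replicate 2 left 2 members called, the second Kat6b CpG and the lead CpG of Prkca, leaving out cauda replicate 1 removed the lead CpG of Kat6b, and leaving out cauda replicate 3 removed Cdc14b. Over all 14149 CpGs the calls in these fits were 39, 63 and 33. In caput, leaving out caput replicate 1 or testis replicate 1 added Cdc14b and gave 4 members called, and leaving out caput replicate 2 or testis replicate 2 removed the Prkca CpG and gave 2. Over all CpGs the calls were 1678 without caput replicate 1, 2395 without testis replicate 1, 2692 without caput replicate 2 and 2437 without testis replicate 2. In corpus, leaving out testis replicate 2 left 0 members called, and leaving out corpus replicate 2 left 1, that of Prkca, while the calls over all CpGs were 593 and 683. The second Kat6b CpG was also lost in corpus without corpus replicate 1 or testis replicate 3, and Cdc14b was added without corpus replicate 1 or testis replicate 1. Those fits called 634 CpGs without corpus replicate 1, 558 without testis replicate 3 and 582 without testis replicate 1.

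The 3 samples of a segment and the 3 testicular samples did not overlap at 2 of the 5 CpGs in cauda, the second Kat6b CpG and the lead CpG of Prkca, and this was so at 5.34% of all CpGs. In caput 2 of 5 did not overlap, both of Kat6b, against 22.2% of all CpGs. In corpus 2 of 5 did not overlap, the same CpGs as in cauda, against 11.1%. The members were chosen on these samples, so nothing is read from these counts either. A permutation test of 3 samples against 3 cannot give a p below 0.1, so single CpGs were not tested that way. Counted over the 9 pairs of a cauda and a testicular sample, the level was higher in cauda in 9 of 9 at the lead CpG of Prkca. It was lower in cauda in 9 of 9 pairs at the second Kat6b CpG, in 8 of 9 at the lead CpG of Kat6b and in 5 of 9 at Cdc14b.

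The spread between samples of 1 origin was then compared with counting error by a likelihood-ratio test, which compares these libraries and not conditions. The members were chosen mostly on these samples, by a test that does not count this spread. Their p-values here are thus a description, and nothing is read from the counts. Testicular replicates differed at 2 of the 5 CpGs, the lead CpG of Prkca (adjusted p 5.8e-05) and the Cdc14b CpG (adjusted p 1.4e-23), against 437 of 14149 CpGs or 3.09%. At the Kat6b lead CpG the testicular range of 34.1 points did not pass, with an adjusted p of 0.055. Cauda replicates differed at 1 of 5, that of Cdc14b (adjusted p 1.4e-18), against 1.48% of all CpGs. Caput replicates differed at 2 of 5, the second Kat6b CpG and that of Cdc14b, against 20.5%. Corpus replicates differed at 2 of 5, the second Prkca CpG and that of Cdc14b, against 8.72%. Cdc14b was the 1 member whose replicates differed in all 4 origins, which held for 16 of 14149 CpGs or 0.113%. It was chosen on most of these values, so nothing is read from this share.

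A range is largest where the mean is intermediate, so the ranges were also set beside the 1545 CpGs with a testicular mean of 20 to 80%, whose median range was 19.7 points. The testicular range was 62.8 points at the lead CpG of Prkca and exceeded that of 98.3% of these CpGs. At Cdc14b it was 55.6 points and exceeded that of 97%. At the Kat6b CpGs it was 34.1 and 16.2 points and exceeded that of 81 and 38.8%. In cauda, where 1495 CpGs had such a mean, the Cdc14b range of 71.6 points exceeded that of 99.8%. These testicular values are among those on which the CpGs were chosen, by a test that does not count spread between samples, so the ranks are a description. Testicular replicates also differed at 10 of the 33 cauda-list CpGs with counts, or 30.3%, against 3.09% of all CpGs. The cauda list was made on these samples too, so nothing is read from this share.

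**Figure D2:**
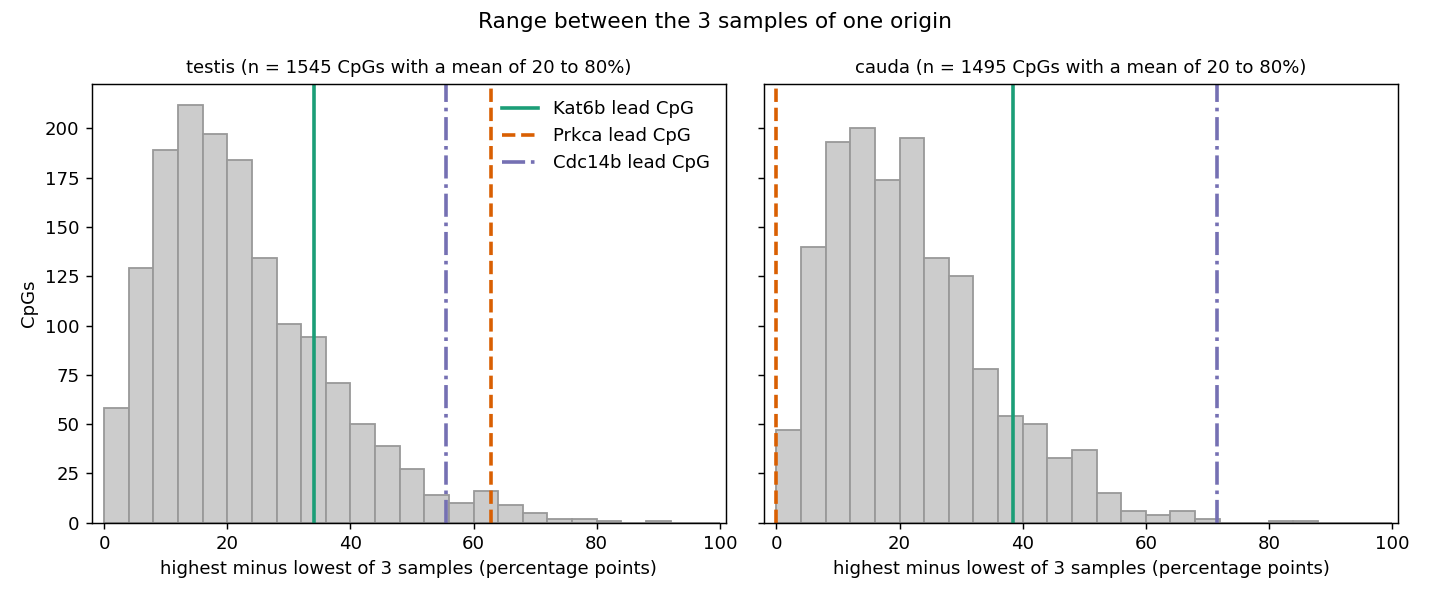
Histograms of the highest minus the lowest of the 3 samples in percentage points (x axis) for CpGs with a mean of 20 to 80% in testis (left) and in cauda (right), with the number of CpGs on the y axis and the lead CpGs as vertical lines. The Prkca and Cdc14b lines lie at 62.8 and 55.6 points in testis. In cauda they lie at 0 and 71.6 points, and the Prkca cauda mean of 100% is itself outside the plotted range of means.

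Caput replicate 1 and corpus replicate 1 are samples that the caput and corpus lists did not use, although the testicular samples against which they are set are shared with the lists. At the lead CpG of Kat6b, caput replicate 1 at 20.8% and corpus replicate 1 at 42.1% both lay below the lowest testicular sample at 44%. The interval of corpus replicate 1, 23.1 to 63.7%, reached above that testicular value. At the lead CpG of Prkca, corpus replicate 1 at 100% lay above every testicular sample, and caput replicate 1 at 71.4% lay above testis replicates 2 and 3. At Cdc14b caput replicate 1 was at 99.1%, above all testicular samples, and corpus replicate 1 at 90.6%, below the 94.5 and 94.1% of testis replicates 2 and 3 and above the 38.9% of replicate 1. Both were far from the samples that the lists used, which had 42.9 to 59.8% in caput and 53.7 to 54.8% in corpus. Because the testicular values are the ones on which the CpGs were chosen, the direction at Kat6b and Prkca is in large part built in, and the difference between corpus replicate 1 and testis replicate 1 at Kat6b was -1.89 points.

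Cauda was also compared with the earlier segments, contrasts that the choice of members did not use directly. Each segment had to differ from the same testicular samples, however, so a small difference between segments may be partly built in. Nothing is read from the counts of members in these contrasts. Between cauda and caput 0 of the 5 CpGs passed the logistic regression test with its difference of 25 points, against 2481 of 14149 or 17.5%. The nearest was the lead CpG of Kat6b, with a pooled difference of 23.3 points and every cauda sample above every caput sample, by at least 1.39 points. Leaving out cauda replicate 1 brought 2 member CpGs past the threshold, the Kat6b lead CpG and Cdc14b, and leaving out caput replicate 2 brought both Kat6b CpGs past it. Without caput replicate 1 the Kat6b lead CpG passed, without cauda replicate 3 the second Kat6b CpG, and without caput replicate 3 that of Cdc14b. Over all CpGs the calls were 2466 without cauda replicate 1, 2819 without caput replicate 2, 1726 without caput replicate 1, 2447 without cauda replicate 3 and 2838 without caput replicate 3. Between cauda and corpus 0 of 5 passed, against 585 or 4.13%, and 1 passed without cauda replicate 1, that of Cdc14b, against 633 of all CpGs. With limma in place of the logistic regression no member CpG passed in either contrast. Over all 14149 CpGs, limma with a pseudo-percent of 1 called 28 in cauda against caput and 4 in cauda against corpus.

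The CpGs on other chromosomes whose levels ran most alike over the 12 samples were named for each lead CpG, as a description. For Kat6b the highest Pearson correlation was 0.819, at chr5:117314455, 4628 bp from the start of Vsig10, with levels of 48.4 to 55.3% in testis and 24 to 28.9% in caput. The next was 0.806 at chr16:80930201, far from any start site with Ncam2 the nearest gene, and then 0.805 at a CpG in Rad23b that never exceeded 7.69%. For Prkca the correlations were 0.934 for a CpG in Fat1, 0.928 for one nearest to Klf10 and 0.926 for one in Lhfpl2. These 3 CpGs stayed at 81.2% or above in every sample, so they vary with the Prkca samples over a much smaller range. For Cdc14b the correlations were 0.904 at a CpG nearest to Rbm19, which stayed below 10%, 0.837 at chr1:85147956 and 0.803 at one nearest to Igsf10. The CpG chr1:85147956 had 65.3, 88.1 and 86.2% in testis and 77.8, 67.6 and 33% in cauda. Replicate 1 was the low sample in testis and the high sample in cauda there, which its choice by correlation with Cdc14b makes likely. Among the lead CpGs the correlation over the 12 samples was -0.61 between Kat6b and Prkca, -0.52 between Prkca and Cdc14b and 0.20 between Kat6b and Cdc14b.

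Elsewhere in the 4 genes the count table holds 7 CpGs, 3 in or just before Prkca and 4 in Cdc14b, and 0 in Kat6b and Erp27. None of the 7 passed against testis in cauda or corpus, as against 0.233% and 3.96% of all CpGs, so this is no result about these genes. The lists name 2 more CpGs in these genes, chr11:108339220 of Prkca in the caput list and chr13:64273681 of Cdc14b in the corpus list, whose counts were not analysed here. In Prkca, 2 CpGs lie 346 and 775 bp before the gene and had levels of at most 9.46 and 20% in any sample. The third Prkca CpG, chr11:108050602 in the gene body, had a mean of 94.8% ± 7.64 (SD, n = 3) in testis, 66.6% ± 12.2 (SD, n = 3) in caput and 97.8% ± 3.85 (SD, n = 3) in cauda. It passed in caput against testis, as did 16.8% of all CpGs, and in cauda against caput, as did 17.5%. Its caput level was thus lower than in testis, where that of the lead CpG was higher. The 4 Cdc14b CpGs lie 17851 to 17902 bp from the lead CpG, and their mean in testis was 97.8 to 100%. They had means of 98.7 to 99.7% in cauda. In testis and cauda no sample was below 96% at these CpGs. In caput and corpus the replicates were spread at chr13:64215662, with 64.3 to 100% in caput and 63.6 to 100% in corpus, and other CpGs of the 4 reached down to 87.9 and 88.1% in caput.

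Genes of the same families were counted from lists of 63 genes, of which 22 had CpGs in the table. In cauda against testis 0 of their 44 CpGs passed by logistic regression, as against 0.233% of all CpGs, and 0 passed with limma. Among relatives and partners of Kat6b, 4 of 14 genes had 6 CpGs and 0 passed in any comparison. Kat5, a histone acetyltransferase of the same family, was at 0% in every sample at both its CpGs. Among 13 protein kinase C genes and relatives, 6 had 15 CpGs, and in caput against testis 2 passed with a higher and 1 with a lower level, a share near the 16.8% of all CpGs and so no result about the group. The 2 higher CpGs were in Prkd2, a kinase related to protein kinase C. The first Prkd2 CpG, chr7:16858324, had 0, 0 and 5.26% in testis, 100, 44.4 and 14.3% in caput and 0, 7.14 and 0% in cauda. All caput samples were above all testicular ones there, with caput replicate 1 far above the others. The lower CpG was in Prkch, a protein kinase C isoform, at 100% in all testicular samples and at 8.7, 93.3 and 74.3% in caput. Among 18 dual-specificity phosphatases related to Cdc14b, 6 had 10 CpGs and 0 passed in any comparison. Among 18 protein disulfide isomerases and relatives of Erp27, 6 had 13 CpGs and 0 passed in any comparison. Over all CpGs, 16.8% passed in caput and 3.96% in corpus against testis. With so few CpGs, the lack of calls is no result about these groups, nor about the relatives of Kat6b. The median difference between caput and testis was 0 points over the 15 CpGs of the protein kinase C group and 0 over all CpGs, of which 1634 passed with a higher and 743 with a lower level in caput.

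Of the 16 CpGs in all 3 lists, 11 have read counts, and 3 of these are the lead CpGs of Kat6b, Prkca and Cdc14b. At the other 8, the testicular range was 5.59 to 90.7 points with a median of 31.3. Testicular replicates differed at 3 of 8, against 3.09% of all CpGs. Among these 3 are the close neighbours chr9:4259516 and chr9:4259547. The CpGs chr13:98626844 and chr13:98626856 are close neighbours too, so the 8 are not all separate places. Cauda and testis did not overlap at 4 of the 8, as at 1 of the 3 lead CpGs, against 5.34% of all CpGs. All 11 were chosen on most of these samples, so nothing is read from these counts. CpGs with closely spaced testicular samples and separated groups occurred among them: chr4:147187824, chosen after its values were seen, had 0, 3.64 and 6.06% in testis and 30, 30.8 and 37% in cauda. CpGs with scattered testicular samples occurred too, such as chr9:4259547, also chosen after its values were seen, with 94.1, 12.5 and 3.45% in testis and 31.8, 81.8 and 100% in cauda. A single testicular sample far from the others, as at Cdc14b, thus occurred outside the 4 genes. Of the 33 cauda-list CpGs with counts, cauda and testis did not overlap at 23, against 5.34% of all CpGs. The cauda list was made on these same samples, so this count is largely built in and nothing is read from it.

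The sperm label was checked with 17 imprinted genes, 4 methylated and 13 unmethylated in sperm, of which 5 had 13 CpGs in the table. For a gene with several CpGs, the level given for a sample is their mean. H19, which is methylated in sperm, had 92.8 to 97.8% in testis and 97.1 to 98.9% in cauda at its CpG, and 87.1, 93.2 and 93.7% in caput. Mcts2, which is unmethylated in sperm, had 0, 1.71 and 5.61% in testis and 0, 0 and 4% in cauda. Its mean level in caput was 68.2, 22.6 and 16.9%, so that caput replicate 1 was apart from the rest here too. Zrsr1, also unmethylated in sperm, had 26.8, 0 and 11.4% in caput and 0, 7.91 and 16.9% in corpus, and at most 8.99% in any testicular or cauda sample. The mean level of the 4 Rasgrf1 CpGs was 0 to 3.57% across samples and the Peg10 CpG was at 54.5 to 100%, against their place in the list. The nearest CpG lay 774 bp from the gene start in Rasgrf1, 8641 bp in Peg10, 2326 bp in H19, 936 bp in Zrsr1 and 24 bp in Mcts2. Whether any of them belongs to an imprinted control region was not tested, so the check of the label is a weak one. Whether the higher Mcts2 and Zrsr1 levels of caput replicate 1 have a part in its levels at Kat6b, Prkca and Cdc14b was not tested.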

How the data were processed

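RRBS was measured in 12 sperm samples, 3 from each of 4 origins. Per the study's methods and the submitters' processing notes, the authors trimmed reads with Trim Galore 0.4.1, aligned them to GRCm38 with Bismark 0.16.1 and compared groups in methylKit. The deposited table gives raw counts of all, methylated and unmethylated reads for each CpG and sample, with at least 10 reads in each. The deposited lists also hold the authors' differences, p-values and q-values, which were not used, and from the lists the positions alone were taken. Files of 100-bp regions hold only such comparisons and were not used. Percent methylation was 100 times methylated reads over coverage.

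The members, families and marker lists were chosen with earlier results of these data known. Positions named are the lead CpGs, each CpG within 1 kb, every other table CpG in these genes, the 3 CpGs on another chromosome with the highest correlation for each lead CpG, and CpGs in or up to 2 kb before genes of the named families. One of the genes listed for these families is not reported here, and its CpGs are in no family count. Imprinted genes took CpGs in the gene or within 2 kb. Genes came from GENCODE M21 and repeats from the masked bases of the RefSeq copy of GRCm38.

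Each CpG was tested by logistic regression on the read counts with a likelihood-ratio chi-square test, two-sided, and Benjamini-Hochberg adjustment over 14149 CpGs. Calls needed an adjusted p under 0.01 as well as pooled percentages that lay more than 25 points apart. Replicates of an origin were tested likewise, with the range of the 3 samples above 25 points. The calls without each replicate were matched to the positions of the lists to find the samples behind them: all 1678 caput-list and all 632 corpus-list CpGs of the table were called without replicate 1 of the segment, and all 33 of the cauda list with 3 replicates. Alternatives were an overdispersion term, limma 3.58.1 (R 4.3.3) on the log2 ratio of methylated to unmethylated percent with a pseudo-percent of 1 or 5, a replicate block, at least 20 reads, an adjusted p under 0.001, a difference above 40 points, medians, pooled reads, caput and corpus without replicate 1, and each replicate left out. Reads per sample ranged from 429606 to 1007992. Values were computed in Python 3.11.15 (scipy 1.17.1, numpy 2.4.6, pandas 2.3.3) and plotted with matplotlib 3.10.9.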

Additional observations from a re-analysis of the deposited data

How the results depend on the processing

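Of 224 values recomputed under another choice, 166 kept their sign and stayed within 1.5 times the reported count or within 1 SD of the reported difference, 3 differences changed sign and the others moved further. With an overdispersion term (quasi-binomial F test) 0 CpGs and 0 members were called in cauda, caput and corpus against testis, and 0 CpGs in cauda against caput and against corpus. At an unadjusted p under 0.05 it gave 435 CpGs in cauda, 2437 in caput and 1352 in corpus against testis, 2405 in cauda against caput and 1395 in cauda against corpus. With limma and a pseudo-percent of 1, the counts were 0 in cauda, 12 in caput and 3 in corpus against testis, 28 in cauda against caput and 4 in cauda against corpus. With a pseudo-percent of 5 they were 0, 5, 1, 8 and 1. No member was called with limma, which gave 574 CpGs in cauda against testis at an unadjusted p under 0.05 with a pseudo-percent of 1 and 560 with 5. So the member calls rest on tests that take no account of spread between samples. The overdispersion term called no CpG of the table in any of these contrasts, and limma none in cauda against testis. Their lack of member calls there thus does not set the members apart from other CpGs.

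With at least 20 reads in every sample, 15 CpGs were called in cauda, 1384 in caput and 176 in corpus against testis, 1391 in cauda against caput and 202 in cauda against corpus, over fewer CpGs. In corpus 0 members were called, and 1 of the 5 was tested, that of Cdc14b, since the CpGs called with all reads fell below this coverage. With a difference above 40 points the counts were 3, 1240, 70, 1285 and 69, and the members called were 1 in cauda, the lead CpG of Prkca, 2 in caput, both of Kat6b, and 0 in corpus. With caput and corpus replicates 2 and 3 only, 1 member was called in cauda against caput.

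With each replicate left out in turn, the CpGs called in cauda against testis were 33 to 63, with 60 without testis replicate 1 and 63 without cauda replicate 1. They were 1678 to 2757 in caput and 558 to 683 in corpus against testis, 1726 to 2838 in cauda against caput and 595 to 697 in cauda against corpus. Members called were 2 to 4 in cauda, 2 to 4 in caput and 0 to 4 in corpus against testis, 0 to 2 in cauda against caput and 0 to 1 in cauda against corpus. The Cdc14b difference in caput against testis ran from -27 to 3.63 points, and it was above 0 without caput replicate 3 (3.63), without testis replicate 2 (0.757) and without testis replicate 3 (0.578). From medians it was -34.3 points in caput, against -8.57 from means, and -39.3 in corpus, against -9.49. The cause of these changes was not tested.

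Replicates called as different were 236 CpGs in testis, 624 in corpus and 104 in cauda at an adjusted p under 0.001, and 1914 of 8653 tested in caput and 519 of 6176 tested in corpus with at least 20 reads, so fewer CpGs were tested there. Over 14149 CpGs the correlation of same-numbered samples' deviations from the group means was -0.121 to 0.0598, and in 0 of 6 pairs of origins was it above 0.1 for every number, so the numbers were not taken to pair the samples. Between caput and cauda it was 0.0217 to 0.0476, against at most 0.0117 for other numbers, and between corpus and cauda 0.0252 to 0.0598, against at most 0.00973. In 16 of 36 cases a sample set against another origin correlated best with its own number. With the replicate number as a replicate block, 32 CpGs and 4 members were called in cauda against testis, 2376 and 3 in caput, 560 and 3 in corpus, 2479 and 0 in cauda against caput and 583 and 0 in cauda against corpus, so it changed no count of member calls.

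The Erp27 lead CpG gave no values for any alternative, since its read counts were not analysed here. With 3 pools per origin and 11 to 36 reads at the Prkca lead CpG, levels are known only within wide intervals. Pools hide differences between mice. The Kat6b pair, and the Prkca pair, share reads.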
